A study of Mus musculus with 2 samples.

Results

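Strong distal peaks in unique sequence were selected from the open chromatin of mouse embryonic stem cells (mESCs), as mapped by ATAC-seq, a method where Tn5 transposase inserts adapters into accessible DNA. They were chosen by their deposited −log10 q-value, their position and their sequence: peaks on chromosomes 1 to 19 with a −log10 q-value that reaches 10, whose summit lies over 5 kb from every GENCODE gene start and at most 100 kb from a protein-coding one, and whose sequence within 250 bp of the summit holds at most 10% soft-masked bases of the mm10 genome. These conditions left 2882 members of the 116782 deposited peaks. The list came from EHMT2-dTAG-mcherry mESCs of a BL6/129 hybrid strain, grown with serum and LIF and treated with DMSO for 24 h, with 50000 cells in each of 2 samples from independent clones. In this line a degradation tag sits on EHMT2, a histone H3K9 methyltransferase, and DMSO is the solvent control, so no sample analysed here has had EHMT2 degraded and no condition could be compared. The authors grew their mESCs on a feeder layer of mouse embryonic fibroblasts. Their ATAC-seq method describes no step that removes the feeders. Both clones are merged in 1 list, so no value below has a spread over replicates, no test was run, and all intervals are 95% intervals that cover counting error only.

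Distal regulatory elements are short stretches of DNA where transcription factors displace nucleosomes and act on a promoter some distance away. In mESCs, OCT4, SOX2, NANOG, KLF4, ESRRB and TFCP2L1 bind such elements near the genes that maintain the undifferentiated state, and KLF4, TFCP2L1 and STAT3 link them to the LIF signal. CTCF, which anchors chromatin loops with cohesin, also keeps many distal sites open. Much open chromatin of mESCs lies in retrotransposons, which the limit on masked bases sets aside here.

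Of the 113777 peaks on chromosomes 1 to 19, 24843 reached a −log10 q-value of 10, 12637 of those were over 5 kb from gene starts, and 7578 of those were also within 100 kb of a protein-coding start. The limit on masked bases kept 38.0% of these 7578, and 897 members had no masked base at all. The other 4696, called masked strong distal peaks below, served as one comparison. Another was a set of 16467 weaker distal peaks that met every condition but the q-value. The sequence background was 474464 windows of the same length that met the position and masking conditions and overlapped no deposited peak. The masking is that of the NCBI release of the genome, and its program is not given in the sources used here.

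The limits cut through a continuous range of values. Near Cxcl13 and Tmem179, members had a −log10 q-value of 10.01, and the nearest peaks left out, near Tal1 and Dgkh, had 9.99 with 19 fragments over the summit each. A member in Erich1 lay 5004 bp and one near Lmnb1 5007 bp from a gene start, against 4988 bp for a peak left out in Pgbd5 and 4985 bp for one in Nmnat3. The farthest members lay 99.992 kb from Irx4 and 99.986 kb from Gclm, and the nearest peaks beyond 100.093 kb from Wdr70 and 100.2 kb from Fam13c. Members near Sulf1 and Ppp1r15b had 9.98% masked bases, and peaks near Pgap1 and Pid1, left out, had 10.2%.

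The sequences of the strongest members show what the selection holds. Each is given as the summit base and 100 bases on either side, 5′ to 3′ on the forward strand of mm10, which is the C57BL/6J reference and may differ from the hybrid strain. Capitals mark the NFY letters CCAATCA, the CCAAT box bound by the trimeric factor NF-Y, on either strand, and the name is the gene with the nearest protein-coding start.
Zfp97, chr17:17178950-17179150: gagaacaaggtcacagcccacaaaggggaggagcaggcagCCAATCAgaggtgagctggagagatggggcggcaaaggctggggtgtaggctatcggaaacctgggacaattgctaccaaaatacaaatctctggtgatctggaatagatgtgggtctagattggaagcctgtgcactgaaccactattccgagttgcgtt
Rbl2, chr8:91134146-91134346: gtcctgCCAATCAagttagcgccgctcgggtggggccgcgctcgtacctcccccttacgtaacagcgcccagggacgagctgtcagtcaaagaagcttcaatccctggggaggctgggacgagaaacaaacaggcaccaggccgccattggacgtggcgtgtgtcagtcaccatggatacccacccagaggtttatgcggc
Zfp960, chr17:17004708-17004908: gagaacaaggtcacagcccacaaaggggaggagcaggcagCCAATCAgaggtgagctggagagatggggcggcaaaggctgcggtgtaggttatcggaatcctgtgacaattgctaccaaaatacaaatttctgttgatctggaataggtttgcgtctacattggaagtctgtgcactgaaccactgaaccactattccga
Zfp619, chr7:39552470-39552670: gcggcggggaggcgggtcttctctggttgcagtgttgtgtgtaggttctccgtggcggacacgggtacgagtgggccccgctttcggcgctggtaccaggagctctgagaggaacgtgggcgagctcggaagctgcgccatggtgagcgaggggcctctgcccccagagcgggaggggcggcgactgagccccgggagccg

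The highest −log10 q-value, 201.3, belonged to an intergenic member at chr17:17178824-17179561, 57.6 kb from the start of Zfp97, which encodes a zinc finger protein. It had 199 fragments over the summit (95% exact Poisson interval 172 to 229), a count calculated from the deposited fold enrichment of 24.4 and the p-value. The third, at chr17:17004501-17005368 and 59.3 kb from Zfp960, another zinc finger gene of the same chromosome, had 160 fragments (136 to 187). The printed bases of both aligned over 186 bases with 94.1% identity, and each member had 7 matches in the genome counting itself. A read that fits several copies equally well can be placed at any of them, and how many reads did so was not measured here.

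The second member, at chr8:91133553-91134552, had 197 fragments (170 to 227). Its nearest protein-coding gene start was that of Rbl2, a pocket protein of the cell cycle, at 64.2 kb, but the summit lay in an intron of Aktip, 219 bp from the start of an annotated Aktip transcript. The fourth, at chr7:39552054-39553029, had 141 fragments (119 to 166) and lay 45 bp from a transcript start of Gm37494, a lincRNA. The fifth had 141 fragments (119 to 166), lay at chr8:27361542-27362650, 6.43 kb upstream of Chrnb3, a subunit of the nicotinic acetylcholine receptor, and was intergenic. So of the 5 strongest members, 2 were copies of a repeated sequence that is mostly unmasked and 2 stood at the start of an annotated transcript.

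Over all members the fragment number at the summit ranged from 15 to 199 with a median of 26, and 25% had 37 or more. Their median fold enrichment over the local background was 8.27 (range 3.83 to 24.8), the median −log10 q-value 16.3 and the median width 838 bp. Masked strong distal peaks, chosen at the same q-value, had a median of 27 fragments, a fold enrichment of 8.59 and a width of 844 bp. The weaker distal peaks had a median of 8 fragments, and no more than 33. At 19 fragments the counting interval is wide (11.4 to 29.7 for the Gclm member), so members of low count cannot be ranked by their height.

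**Figure D1:**
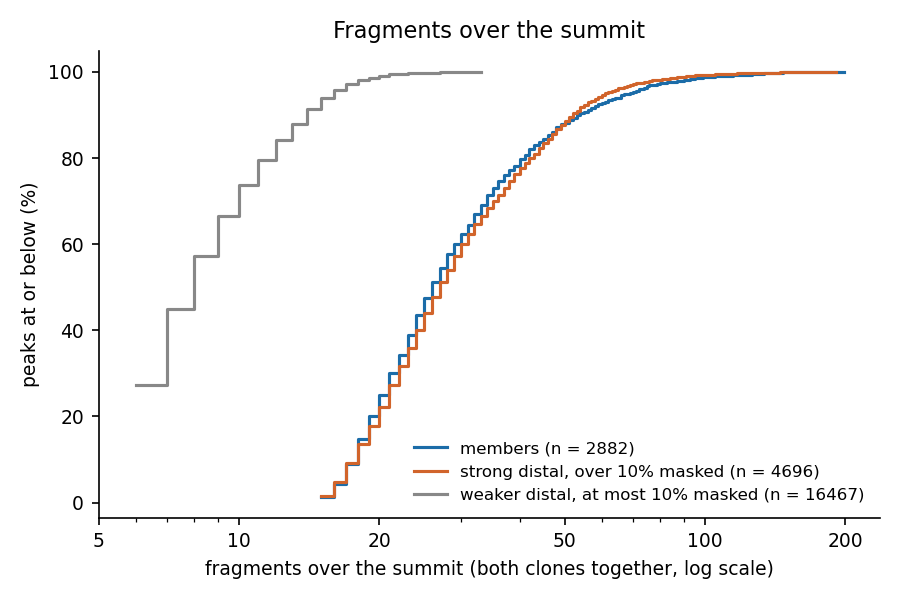
Cumulative share of peaks (%) by the number of fragments over the summit (log axis, both clones together) for members, masked strong distal peaks and weaker distal peaks with at most 10% masked bases. Members and masked strong peaks run close together with medians of 26 and 27, and the weaker peaks end at 33; the q-value that separates them is part of the selection.

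Uniqueness was checked by searching the 250 bp on either side of each member's summit in the genome. In all, 2809 members (97.5%, interval 96.83 to 98.01%) matched only themselves at 90% identity over 50% of their length. The other 73 had at least 1 further match, 20 of them at 98% identity, and the highest number of matches was 60. These repeated members had a median of 32 fragments against 26 for the others, and they made up 11 of the 100 members of highest q-value. They are unmasked but not unique, and 35 of the 73 were intergenic.

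Members lay in introns in 48.5% of cases (46.6 to 50.3%), between genes in 34.7% (33.0 to 36.5%) and in exons in 16.8% (15.4 to 18.2%). In windows without a peak these shares were 56.3%, 33.9% and 9.80%, and among masked strong distal peaks 44.5%, 51.3% and 4.28%. The exonic members split into 210 in coding sequence, 208 in untranslated exons and 66 in exons that are neither. The summit was inside the gene whose start was nearest for 42.4% of members, and upstream of that start for 38.5%.

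Many members sat at the start of an annotated transcript although they were over 5 kb from the start of any gene model, since GENCODE places a gene's start at its outermost transcript. Within 500 bp of some transcript start lay 492 members, 17.1% (15.7 to 18.5%), where the background of windows without a peak was 2.74%. For the starts of curated RefSeq transcripts (NM and NR) the shares were 12.7% and 0.260%. Among masked strong distal peaks 4.20% lay within 500 bp of a GENCODE transcript start, and among weaker distal peaks 5.00%. In 362 of the 492 the transcript belonged to the gene with the nearest protein-coding start, so these members mark starts inside the gene.

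These 492 members differed in composition from the rest. Their median GC content was 63.3%, against 52.2% for the 2390 members farther away, and their median ratio of observed to expected CpG was 0.70 against 0.29. CpG-rich sequence, set here at a GC content of at least 50% and a CpG ratio of at least 0.6, made up 60.8% (56.3 to 65.1%) of the former and 10.1% (8.91 to 11.4%) of the latter. They also had a median of 35 fragments over the summit against 25, and a width of 1002 bp against 804 bp. Windows without a peak had a median GC content of 45.5% and were CpG-rich in 0.171% of cases.

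The strongest of these start-site members after those of Aktip and Gm37494 were at transcripts of Scoc with 134 fragments (112 to 159), Cyb5a with 134, Lman1 with 117, Hint3 with 133, Sptbn1 with 135 and Dcun1d4 with 147. Sptbn1, a spectrin of the membrane skeleton, had its gene start 69776 bp away, and Dcun1d4 had it 9902 bp away. Among the genes of the lists described below, start-site members were found for Fgfr1, the FGF receptor, with 55 fragments at 32 bp from the transcript start, for Cbx5, which encodes the heterochromatin protein HP1α, with 42 at 112 bp, for Cdyl with 56 at 132 bp and for the DNA methyltransferase gene Dnmt1 with 39 at 52 bp. Others stood at Lifr, Pax6, Gata4 and Fgf4.

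The sequence of the Lifr member shows this kind of region. Lifr is the receptor for LIF, the cytokine that keeps these cells undifferentiated, and the summit lay 39.0 kb inside the gene but 69 bp from a Lifr transcript start, in an exon, at chr15:7128999-7130107. The 250 bp on either side held 79.8% GC with a CpG ratio of 1.01, and none of the 21 motifs searched, so no base is capitalised.
Lifr, chr15:7129541-7129741: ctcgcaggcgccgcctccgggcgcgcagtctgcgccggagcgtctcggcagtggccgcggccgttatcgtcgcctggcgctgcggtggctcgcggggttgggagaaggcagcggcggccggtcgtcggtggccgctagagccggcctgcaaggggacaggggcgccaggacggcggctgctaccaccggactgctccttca

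Members were denser close to protein-coding starts. Per Mb of eligible sequence (windows that met the position and masking conditions), 15.8 members lay between 5 and 10 kb, 13.5 between 10 and 20 kb, 10.4 between 20 and 40 kb and 8.67 between 80 and 100 kb. Without those within 500 bp of a transcript start the densities were 11.3, 11.0, 8.84 and 7.70 per Mb, a shallower fall. The median GC content of members fell with distance as well, from 56.3% at 5 to 10 kb to 51.3% at 60 to 80 kb and 51.8% at 80 to 100 kb, while the median number of fragments stayed between 24 and 28.

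**Figure D2:**
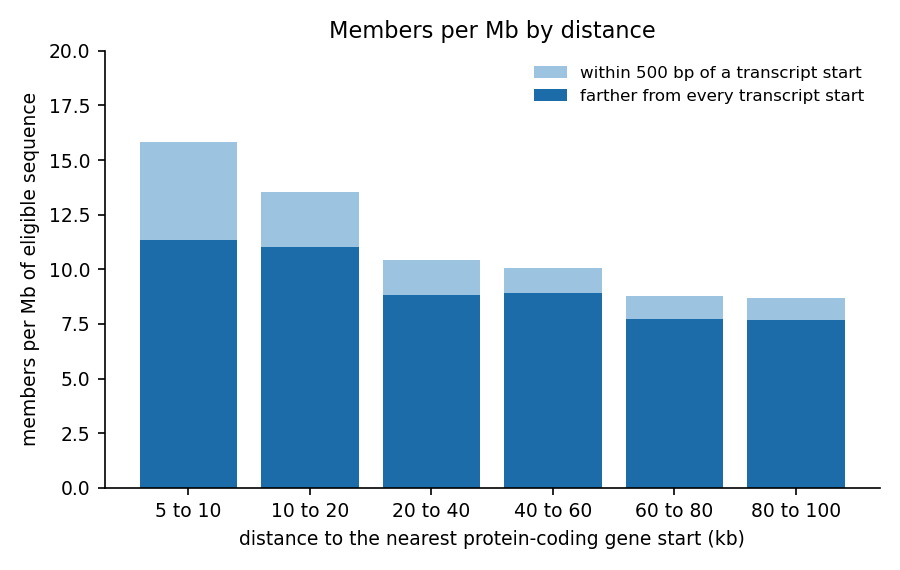
Members per Mb of eligible sequence by distance to the nearest protein-coding gene start (kb), split into those within 500 bp of an annotated transcript start (light) and those farther away (dark). The total falls from 15.8 to 8.67 per Mb and the dark part from 11.3 to 7.70 per Mb.

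Next, 21 transcription factor motifs were searched as fixed letters on both strands within 250 bp of the summit. A match is a description of the sequence and not a bound site. The 8 motifs of pluripotency factors were the OCT4-SOX2 composite TTGTNATGC, the octamer ATGCAAAT of OCT4, SOX ACAATGG, KLF GGGNGTGG, ESRRB TCAAGGTCA, STAT3 TTCCNGGAA, TFCP2L1 CCAGNNNNNNCCAG and ZIC CAGCAGG. The last 4 letters of the composite can be the first of an octamer, and ZIC letters can fall inside a CTCF match. At least 1 of the 8 occurred in 59.6% of members (57.8 to 61.4%), against 37.7% of windows without a peak and 48.4% of masked strong distal peaks. The share among weaker distal peaks was 53.0%. None of these shares is matched for GC content, and the 8 motifs together were not compared within GC bands.

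KLF was the most frequent of them, in 756 members or 26.2% (24.6 to 27.9%), against 9.97% of windows. The same letters in reversed order gave 18.6% of members and 9.47% of windows, so part of this difference is also seen for letters of the same composition. ZIC followed with 724 members, 25.1% (23.5 to 26.7%), against 15.4% of windows, and TFCP2L1 with 271, 9.40% (8.36 to 10.5%), against 5.34%, before any matching for base composition. The octamer was held by 151 members, 5.24% (4.45 to 6.12%), against 2.85% of windows, and its reversed letters by 0.0694% against 0.334%. ESRRB, an orphan nuclear receptor, had 1.94% (1.47 to 2.52%) against 1.02%, and STAT3, the effector of LIF, 2.15% (1.65 to 2.75%) against 1.65%.

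SOX letters were in 7.81% of all members (6.85 to 8.85%) and in 7.87% of all windows, a comparison that does not match base composition. The OCT4-SOX2 composite was in 47 members, 1.63% (1.201 to 2.163%), with 1.40% of windows inside that interval. Masked strong distal peaks held it in 4.45% of cases (3.88 to 5.08%), a share 2.73 times that of members, and the weaker distal peaks in 1.79%.

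Shares were therefore also compared within bands of GC content. From the lowest band to the highest these held 230, 652, 844, 570 and 586 members. No interval was computed within a band, so small gaps there are not resolved. Members are richer in GC than windows, and among members below 45% GC the composite occurred in 4.78% of 230, against 1.74% of windows in that band. From 45 to 50% GC the shares were 2.91% and 1.28%, from 50 to 55% GC 1.42% and 0.976%, and from 55 to 60% GC 0.526% and 0.671%. The octamer exceeded its windows in each of the 5 bands, by 10.9% to 4.06% below 45% GC and by 2.05% to 0.292% from 60% GC up. KLF was also above its windows in each band, with 34.0% against 23.0% between 55 and 60% GC.

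Other motifs changed side with GC content, though the gaps from 55 to 60% GC were not set against counting error. SOX was in 17.8% of members and 8.52% of windows below 45% GC, in 10.6% and 7.88% from 45 to 50%, and in 8.41% and 6.86% from 50 to 55%, but in 5.09% and 5.96% from 55 to 60%. ZIC was above its windows in the same 3 bands, with 18.7% against 9.09%, 23.5% against 16.9% and 27.5% against 24.2%, and below them from 55 to 60% GC (28.2% and 31.4%) and from 60% up (23.0% and 35.8%). TFCP2L1 was above them in the lower bands, with 7.98% against 5.71% from 45 to 50% GC, level from 50 to 55% (9.24% and 9.23%) and below from 55 to 60% (12.3% and 13.1%) and from 60% up (10.4% and 14.4%).

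Of the 47 members with the composite, 37 had it within 100 bp of the summit, 7 also held an octamer, 18 were intergenic and 26 intronic, and 3 were near a transcript start. They had 16 to 80 fragments with a median of 28, and a median GC content of 48.9%. The 4 of highest q-value with the composite within 100 bp of the summit are printed to show the sites in place, with the composite in capitals on whichever strand it lies; they were chosen after their values were seen, because the selection planned for printing, members near pluripotency genes with this motif, was empty.
Tjp1, chr7:65454342-65454542: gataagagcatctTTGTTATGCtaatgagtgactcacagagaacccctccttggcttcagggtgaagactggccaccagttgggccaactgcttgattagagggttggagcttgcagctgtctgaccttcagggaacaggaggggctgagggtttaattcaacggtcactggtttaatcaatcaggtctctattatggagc
Dok5, chr2:170772217-170772417: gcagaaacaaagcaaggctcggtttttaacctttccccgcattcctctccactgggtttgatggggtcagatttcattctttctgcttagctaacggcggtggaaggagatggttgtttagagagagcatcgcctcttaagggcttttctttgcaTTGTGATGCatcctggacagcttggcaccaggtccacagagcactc
Arhgap32, chr9:32095620-32095820: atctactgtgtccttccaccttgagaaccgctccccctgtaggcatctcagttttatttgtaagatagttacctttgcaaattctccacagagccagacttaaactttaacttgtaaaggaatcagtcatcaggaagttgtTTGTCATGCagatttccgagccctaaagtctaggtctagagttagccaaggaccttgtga
Cnpy1, chr5:28209991-28210191: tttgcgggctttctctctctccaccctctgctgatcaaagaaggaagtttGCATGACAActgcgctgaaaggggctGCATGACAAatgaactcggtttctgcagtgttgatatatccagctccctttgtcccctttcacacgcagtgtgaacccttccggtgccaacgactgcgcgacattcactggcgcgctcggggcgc

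The Tjp1 member, in an intron 73.3 kb from the start of this tight-junction gene, had 80 fragments (63.4 to 99.6) and its composite centred 83 bp below the summit. In Dok5 the member had 66 fragments (51.0 to 84.0), and the intergenic one near Arhgap32 had 60 (45.8 to 77.2). The Cnpy1 member, with 54 fragments (40.6 to 70.5), held the composite in 2 places, both on the reverse strand, and lay 69 bp from a transcript start.

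CTCF stood out among the other factors. Its consensus, searched by name with degenerate letters, was in 195 members, 6.77% (5.88 to 7.75%), against 0.125% of windows without a peak and 2.704% (2.259 to 3.209%) of masked strong distal peaks. Weaker distal peaks held it in 4.86% of cases. Its reversed letters were in no member, which allows a share of up to 0.104% (3 counts). Members with it had a median of 24 fragments and a width of 696 bp, against 26 and 845 bp for those without, and 46.7% of them were intergenic against 33.9%. In each GC band the share of members exceeded that of windows, from 8.70% against 0.0646% below 45% GC to 3.75% against 0.292% from 60% GC up. The members of highest q-value with CTCF letters within 100 bp of the summit, also chosen after their values were seen, were in an exon near Vps13d with 68 fragments (52.8 to 86.2) and upstream of Irx4 with 53 (39.7 to 69.3), and the capitals mark the match.
Vps13d, chr4:145214567-145214767: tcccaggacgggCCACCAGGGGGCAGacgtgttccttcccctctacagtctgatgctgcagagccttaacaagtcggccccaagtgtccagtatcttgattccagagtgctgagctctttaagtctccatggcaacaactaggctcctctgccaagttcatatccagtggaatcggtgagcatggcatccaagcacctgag
Irx4, chr13:73160387-73160587: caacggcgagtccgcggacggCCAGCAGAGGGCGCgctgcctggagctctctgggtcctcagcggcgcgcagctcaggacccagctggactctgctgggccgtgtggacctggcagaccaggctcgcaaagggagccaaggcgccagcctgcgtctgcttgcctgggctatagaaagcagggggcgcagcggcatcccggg

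Motifs of factors that bind many promoters were searched as well. NFY letters were in 290 members, 10.1% (8.99 to 11.2%), against 5.67% of windows and 10.3% of masked strong distal peaks. NRF1 GCGCATGCG was in 28 members, 0.972% (0.647 to 1.40%), against 0.0763%, and ETS CCGGAAGT in 63, 2.19% (1.68 to 2.79%), against 0.463%. The E-box CACGTG had 9.30% (8.26 to 10.4%) against 6.20%, but its reversed letters had 11.2% against 9.68%, and within GC bands the gap was small, with 7.67% and 7.11% from 45 to 50% GC and 8.41% and 8.20% from 50 to 55%. Of the 28 members with NRF1 letters 53.6% lay within 500 bp of a transcript start, and of the 63 with ETS letters 38.1%, where 17.1% of all members did. NFY differed less in this respect, with 22.1%. Away from transcript starts, NRF1 was in 0.544%, ETS in 1.63%, NFY in 9.46%, CTCF in 7.78% and the octamer in 5.82% of members. All were above the windows when GC content was not matched. Within GC bands, over all members, ETS and NFY were above their windows in all 5 and NRF1 in only 3.

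YY1 AAGATGGCG gave the widest gap between members and their masked counterparts. It was in 16 members, 0.555% (0.318 to 0.900%), and in 16.7% (15.7 to 17.8%) of masked strong distal peaks, with 0.204% of windows. GRHL AACCGGTT was in 11 members, 0.382% (0.191 to 0.682%), against 0.1% of windows, and REST TTCAGCACC, the neuronal repressor, in 34, 1.18% (0.818 to 1.64%), against 0.549%. RFX GTTGCCATG was in 30, 1.04% (0.703 to 1.48%), against 0.644%. The reversed GRHL letters were in more members, 0.625%, and in 0.956% of windows. These shares are not matched for GC content. Within GC bands REST was above its windows in all 5, but YY1, GRHL and RFX in only 3 of 5. RFX was in 0% of members against 0.558% of windows below 45% GC, and in 0.683% against 0.693% from 60% up.

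Motifs of lineage and stress factors were at or below the windows when GC content was not matched. The GATA motif with the letters AGATAAG was in 4.48% of members (3.75 to 5.30%) against 7.44%, FOX TGTTTAC in 6.38% (5.52 to 7.34%) against 7.47%, AP-1 TGANTCA in 15.2% (13.9 to 16.6%) against 16.2%, and TEAD CATTCCA in 9.44% (8.39 to 10.6%) against 9.69%. These letters hold more A and T than G and C, and members with them had a median GC content of 49.9% to 51.1%, below the 53.3% of all members. Within GC bands, of these 4 motifs only GATA stayed below its windows in all 5, with 4.98% against 5.50% from 50 to 55% GC. Its shares were nearly level from 45 to 50% GC (6.90% and 6.96%) and from 60% up (2.05% and 2.08%). The widest gap, 6.09% against 8.98% below 45% GC, rests on 230 members. A lower GATA share at matched GC content is thus not resolved. FOX was above them in all 5, with 10.6% against 6.87% from 45 to 50% GC, AP-1 in 4, with 21.9% against 16.0% in that band, and TEAD in the 3 below 55% GC, with 12.2% against 8.82% from 50 to 55%.

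**Figure D3:**
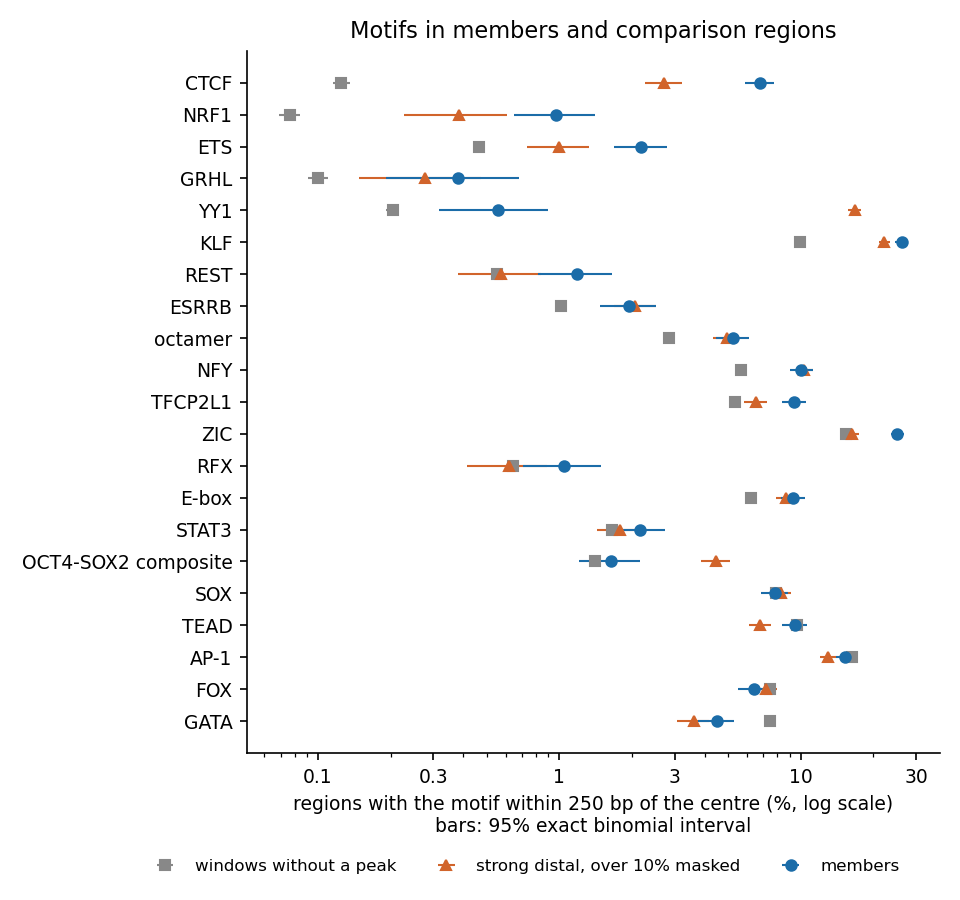
Share of regions (%, log axis) that hold each of 21 motifs within 250 bp of the centre, for members (circles), masked strong distal peaks (triangles) and windows without a peak (squares), with bars for the 95% exact binomial interval. Motifs are ordered by the ratio of members to windows: CTCF, at 6.77% against 0.125%, is at the top and GATA, at 4.48% against 7.44%, at the bottom; YY1 and the OCT4-SOX2 composite are higher in masked peaks.

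The matches clustered near the summit for some motifs and not for others. Within 50 bp of the summit the octamer had 0.165 matches per kb and 300 to 500 bp away 0.0451, a ratio of 3.66. The ratio was 3.56 for the composite (18 and 20 matches), 2.82 for NFY, 2.12 for ZIC, 2.07 for TFCP2L1, 1.85 for SOX, 1.47 for KLF and 0.660 for GATA. It was higher than for the octamer, on few matches, for RFX with 5.72 (13 and 9) and NRF1 with 5.09 (9 and 7). ESRRB with 1.32 and STAT3 with 0.869 showed little or no rise within 50 bp, on 9 matches each. STAT3 had 0.0659 per kb between 50 and 100 bp, against 0.0356 between 300 and 500 bp. ESRRB had 0.0208 between 50 and 100 bp and 0.0503 between 100 and 200 bp, against 0.0234. For CTCF the density was highest between 50 and 100 bp, at 0.208 per kb, with 0.0962 within 50 bp and 0.00434 between 300 and 500 bp.

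The clustering was not centred on the summit. Within 50 to 150 bp of the summit, 138 CTCF matches lay at lower genome coordinates and 7 at higher ones. The same held for both strands of the match, with 83 against 3 for matches on the forward strand and 55 against 4 on the reverse, so the side followed the genome and not the motif. NFY had 141 against 49, the octamer 64 against 11 and KLF 302 against 175, while GATA had 27 against 20. Measured from the middle of the peak in place of its summit, CTCF had 91 matches on either side within 250 bp, NFY 152 below and 186 above, and the octamer 77 and 81. The deposited summits of members lay above the middle of their peak in 58.5% of cases. Over all members the median of summit minus middle was 31 bp, with quartiles of -76 and 126 bp. The cause of this offset was not tested; it bears on any reading of single bases around these summits, and the reach of 250 bp used here extends past it.

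**Figure D4:**
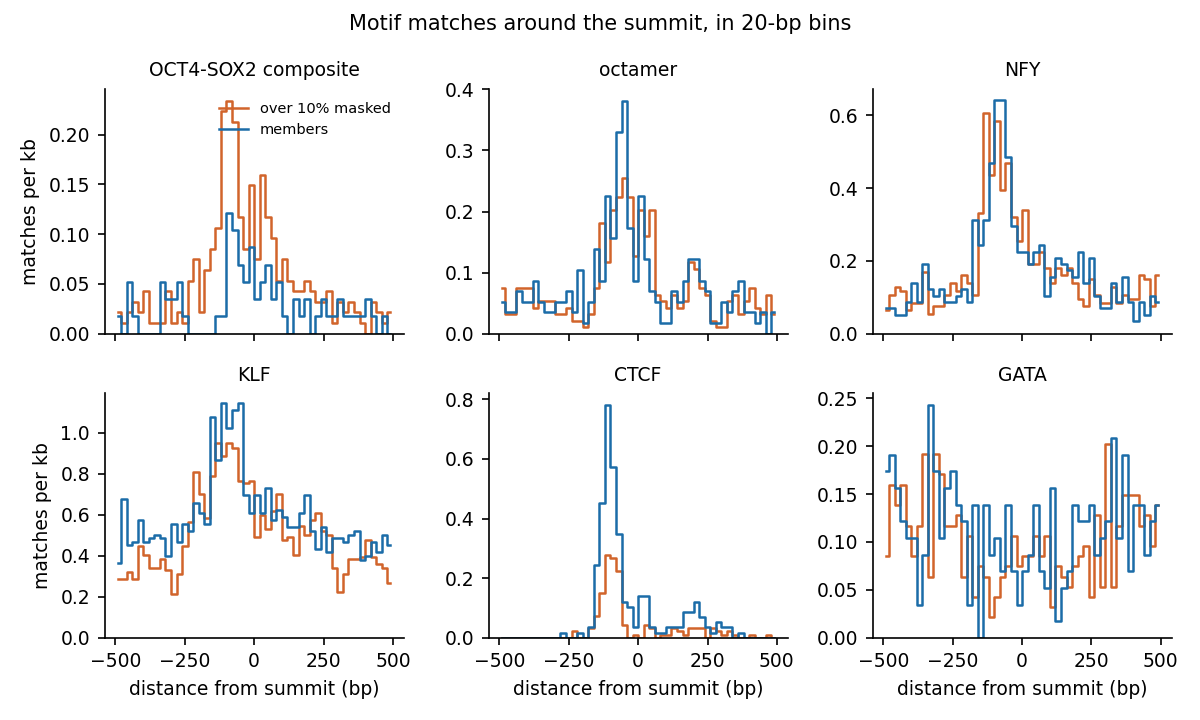
Matches per kb in 20-bp bins by distance from the summit (bp, negative is the lower genome coordinate) for 6 motifs in members (blue) and masked strong distal peaks (orange). CTCF, NFY, octamer and KLF matches pile up below the summit, as in the 138 CTCF matches at 50 to 150 bp below against 7 above, and GATA shows no such rise.

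Genes were then taken as neighbours by the nearest protein-coding start, which is a position and not a known target. Of 20807 protein-coding genes on chromosomes 1 to 19, 2411 were nearest to at least 1 member, a background of 11.6%. Most of them, 2029, had a single member, 311 had 2, 57 had 3, 10 had 4 and 4 had 5. Genes differ in the eligible sequence around them, so members per Mb of that sequence are given beside the counts; the average was 11.2 per Mb.

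Among pluripotency factor genes, 14 of the 38 on these chromosomes had a member, 36.8% (21.8 to 54.0%), with 22 members in all at 30.8 per Mb. The share depended on the limits that define a member: it was 18.4% (7.74 to 34.3%) beside 8.44% of all coding genes for members over 10 kb from gene starts, and 10.5% (2.94 to 24.8%) beside 4.06% for members with no masked base. The first interval contains the share of all genes, and so does the second. The lists had been drawn up with earlier results of these data known. The strongest, for Klf4, was 17.5 kb downstream of the gene start at chr4:55514622-55515333, outside any gene, with 64 fragments (49.3 to 81.7). Klf4 encodes a zinc finger factor of the reprogramming set, and the region itself held KLF letters in 2 places, shown in capitals.
Klf4, chr4:55514861-55515061: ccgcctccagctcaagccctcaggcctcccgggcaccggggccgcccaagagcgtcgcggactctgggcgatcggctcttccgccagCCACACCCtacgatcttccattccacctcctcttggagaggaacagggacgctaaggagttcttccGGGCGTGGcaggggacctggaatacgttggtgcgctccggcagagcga

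A further Klf4 member, 54.9 kb downstream, had 66 fragments (51.0 to 84.0) over a higher background, so its −log10 q-value was 34.3 against 58.1. Klf5, a related factor, had a member 26.1 kb downstream of its start with 61 fragments (46.7 to 78.4). Tfcp2l1, a factor of the LIF response, had one at 62.1 kb with 54 (40.6 to 70.5), which held KLF and SOX letters. Zfp281 had 45 fragments (32.8 to 60.2) at 11.5 kb upstream, and Mycn, the MYC family gene, 40 (28.6 to 54.5) at 14.5 kb downstream. Adjacent genes in the order from Klf4 to Mycn overlap widely in their intervals, so their order is not resolved by depth. The counts at its ends, 64 and 40, were not compared by a test.

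Lifr had 5 members, the most of this list, all but 1 inside the gene. In order along the gene they had 27 fragments at 8.54 kb upstream, 51 at 26.4 kb, 46 at 39.0 kb (the transcript start printed above), 35 at 42.3 kb and 26 at 77.5 kb. Prdm14, a regulator of germ cells and naive pluripotency, had 3, with 23 fragments at 5.10 kb upstream, 34 at 23.0 kb and 49 at 52.3 kb. Tet2, which oxidises methylated cytosine, had 45 in an intron at 20.4 kb and 24 at 55.7 kb upstream. Sall4, a zinc finger factor, had 1 with 40 fragments (28.6 to 54.5) at 23.5 kb upstream, with SOX letters. Nanog had 1 with 34 (23.5 to 47.5) at 8.66 kb, with NFY letters only.

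The remaining genes of this list had 1 member each. Nr5a2, an orphan nuclear receptor, had 42 fragments (30.3 to 56.8) at 7.45 kb with KLF letters. Fgf4, whose product drives exit from the naive state, had 35 (24.4 to 48.7) at 45 bp from one of its transcript starts. Tdh, a threonine dehydrogenase, had 31 (21.1 to 44.0), and Jarid2, a partner of Polycomb repressive complex 2, had 18 (10.7 to 28.4), the lowest. Of the 22 members 7 held KLF letters, 4 SOX, 4 ZIC and 1 ESRRB, and none held the octamer or the composite. Pou5f1, Sox2 and Esrrb had no member.

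**Figure D5:**
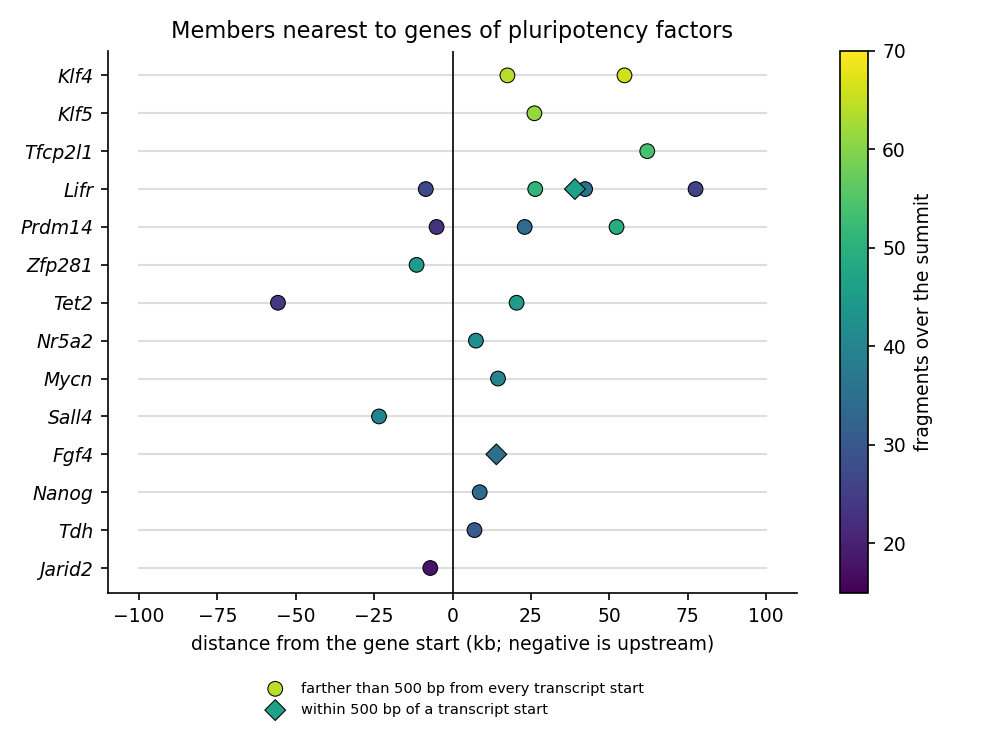
The 22 members nearest to genes of pluripotency factors, by distance from the gene start (kb, negative is upstream) and gene, with colour for fragments over the summit and diamonds for the 2 members within 500 bp of a transcript start. Lifr has 5 members and Prdm14 has 3, and the Klf4 members, with 64 and 66 fragments, are the highest.

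Genes of primed and germ-layer factors, which are largely silent in mESCs, had members too: 12 of 40, 30% (16.6 to 46.5%), with 18 members at 20.3 per Mb. The median of these 18 was 28 fragments, against 40 for the pluripotency list. Pax6, a factor of eye and neural tube, had 4 members with 29, 42, 58 and 60 fragments, of which that with 58 lay 18 bp from a Pax6 transcript start and that with 29 held the composite. Sox1, a neural factor, had 42 fragments (30.3 to 56.8) at 44.1 kb downstream with an octamer. Neurog2 had 43 (31.1 to 57.9) at 7.59 kb upstream, Hand2 had 36 (25.2 to 49.8) for the stronger of its members and Neurod1 had 32 (21.9 to 45.2) at 77.4 kb, inside Cerkl. Octamer letters were in 3 of the 18 and KLF letters in 6.

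Signalling genes of the LIF, FGF, Wnt, BMP and Nodal pathways had a member in 18 of 42 cases, 42.9% (27.7 to 59.0%), at 23.0 per Mb; Lifr and Fgf4 are on this list as well. Etv5 and Spry4 of the FGF response, Socs3 of the LIF response and Lefty1 of the Nodal pathway were among them. Of EHMT2 and its partners, 8 of 23 had one, 34.8% (16.4 to 57.3%), with 11 members at 47.0 per Mb of a small eligible length of 0.234 Mb. They were Adnp, Cbx5, Cdyl, Chd4, Dnmt1, Mga, Zfp462 and Zfp644, and the Zfp644 member held the composite. Ribosomal protein genes had 5 of 62, 8.06% (2.67 to 17.8%), and 12.7 per Mb.

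Of 41 genes of terminal differentiation 1 had a member, 2.44% (0.0617 to 12.9%, which contains the 11.6% of all genes), at 1.99 per Mb: Gfap, the astrocyte filament. Counting any member within 100 kb, 12 of the 41 had one, 29.3% against 30.8% of all genes. Two-cell-stage genes had none in 28, which allows up to 10.7% (3 counts), and they had only 0.0887 Mb of eligible sequence. At the density of all genes this length would hold about 1 member, so no difference was detectable there.

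The genes with the most members were Sertad2, Tns3, Clmn and Lifr with 5 each. Those of Sertad2, a transcriptional co-regulator, had 26, 32, 66, 52 and 24 fragments and ran from 88.0 kb upstream to 96.9 kb downstream of the start. Those of Tns3, a focal adhesion protein, had 66, 23, 35, 31 and 32 and lay inside the gene except the last. Clmn, the calmin gene, had 27, 49, 28, 51 and 31 from 35.0 kb downstream to 34.0 kb upstream. Serbp1, Ednrb, Sema3e, Pax6, Ptma and Retreg1, with 4 each, completed the 10 taken by number and highest q-value. The Serbp1 set, of an mRNA-binding protein, held 1 member of 118 fragments (97.7 to 141) at 64 bp from a Serbp1 transcript start beside others of 21, 28 and 33. Over all members the median distance to the nearest other member was 121 kb, and 229 of them, 7.95%, had another within 10 kb. No expected spacing was computed, so whether members cluster was not tested.

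Chromosome 8 differed from the others in number. It held 218 members, 17.2 per Mb of eligible sequence, where the other chromosomes had 8.03 to 13.4. Its members had a median of 31 fragments over the summit, against 24 to 28 elsewhere, and a local background of 3.14 fragments, against 1.95 to 2.51. The median fold enrichment there, 7.97, was within the range of the others, 7.82 to 9.18. A higher fragment count at equal fold enrichment gives a higher q-value, and the part of fragment depth in the number of members was not tested. Without this chromosome, the shares in introns, with the composite and with KLF letters and the median GC content differed by less than their intervals. Other motifs were not recomputed. The pluripotency share could not change, since no member of that list lay on chromosome 8.

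Marker genes of the labelled cell type and of others were looked up at their gene starts. Of 8 marker genes of mESCs, 6 had a peak within 500 bp of the gene start, with fold enrichments from 2.83 at Pou5f1 to 15.9 at Zfp42, and Esrrb and Tdgf1 had none. Peaks were found at 2 of 6 primitive endoderm markers, 1 of 7 of feeder fibroblasts (Thy1), 2 of 4 of trophectoderm and 0 of 5 of 2-cell-like cells. The share of all protein-coding genes with a peak at the start was not computed. These counts therefore have no background beside them and do not test the label. An open start is not expression, and such a list does not measure a minority of other cells.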

How the data were processed

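ATAC-seq of 2 samples was processed by the authors: reads were aligned to mm10 with STAR 2.7.10, duplicates removed with Picard 2.26.0, fragments shifted for the Tn5 cut and peaks called with MACS2 2.2.6 on the merged samples. The deposited fold enrichment is the ratio of pileup plus 1 to local background plus 1. The −log10 p-value and −log10 q-value were deposited per summit, and the deposited score is the −log10 p-value times 10, rounded down, for all members. Library totals are unknown.

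Fragment numbers were derived as the whole number that gives both deposited values of a peak, matching −log10 p within 0.002 for all 113777 peaks on chromosomes 1 to 19. Poisson and Clopper-Pearson intervals (95%) came from SciPy 1.17.1 under Python 3.11.15, and genome matches from BLAST 2.17.0. Annotation was GENCODE vM21 and RefSeq on GRCm38 (mm10). The fragment calculation, motif search and nearest-start search were tested on simulated data.

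Members, motifs and gene lists were chosen with earlier results of these data known. Named genes were the 5 members of highest q-value, the 10 and 5 list genes of highest q-value, 2 peaks on each side of a limit and the 10 genes with most members; others were named after their values were seen. The alternatives were other limits, a window of 100 bp on either side of the summit, any coding start within 100 kb, and leaving out chromosome 8, and 2 were added after seeing the data.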

Additional observations from a re-analysis of the deposited data

How the results depend on the processing

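With 1 merged list no replicate could be left out. No paired analysis was possible because there is 1 group and 1 list. Of 64 values under other settings, 37 stayed within 1.5 times the number of members or inside the 95% interval, and 27 did not. Raising the −log10 q-value limit to 20 left 1036 members, with KLF in 28.5% and a median GC content of 54.7%. Lowering it to 5 gave 6207, with 24.0% and 52.3%. At that limit 60.5% of pluripotency genes had a member, beside 21.3% of all coding genes. Over 10 kb from gene starts, 50.4% were intronic, 18.4% of pluripotency genes had a member (8.44% of all coding genes) and GC was 52.7%. Over 2 kb, 46.6% were intronic and GC was 53.8%, and at most 50 kb from a coding start 46.5% and 54.1%. With at most 25% masked there were 4545 members, KLF in 28.4% and GC 52.1%. With no masked base there were 897, 45.6% intronic, the composite in 1.003%, KLF in 22.6% and GC 54.7%. Under that limit 10.5% of pluripotency genes had a member, beside 4.06% of all coding genes. Within 100 bp of the summit KLF was in 12.9% and GC was 54.2%. Counting any coding start within 100 kb, 55.3% of pluripotency genes and 30.8% of all genes had a member. Without members within 500 bp of a transcript start, added after seeing the data, GC was 52.2%. The causes were not tested, apart from fewer bases searched within 100 bp and members removed or added by each limit. The results without chromosome 8 and without members that match elsewhere in the genome stayed inside the intervals. For the pluripotency share this was fixed in advance, since neither setting removed a member of that list. Both of these values are counted among the 37. Depth limits the ranking of members, since a median of 26 fragments carries an interval wider than most gaps between them.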
